A study of Mus musculus with 24 samples.

Results

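The response of the wild-type mouse uterus to repeated progesterone (P4) was set against its response to a single injection, as the P4 effect at 40 h minus the P4 effect at 4 h. The arrays were taken by their titles: 12 wild-type arrays of 24 in the series, in 4 groups of 3. The tested groups were wild-type mice given P4 and killed 40 h or 4 h after the first injection, and each was compared with wild-type mice given the sesame oil vehicle alone and killed at the same time. The other 12 arrays came from progesterone receptor knockout (PRKO) mice in the same treatments and times, and they serve here as a second measurement of the same difference where the receptor gene is disrupted. All mice, controls included, had been ovariectomized at 6 weeks of age and rested for 2 weeks. A P4 dose was 1 mg per mouse and injections were 12 h apart, so the 40 h uteri had received 4 injections, the last of them 4 h before death, while the 4 h uteri had received 1. Whole uteri were used and each pool held RNA of 5 mice of the same genotype and treatment, but whether the 3 arrays of a group came from 3 such pools is not stated in the labels. The p-values below therefore measure the spread between arrays, which may be technical.

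P4 acts mainly through the progesterone receptor, a hormone-activated transcription factor of the nuclear receptor family that binds DNA and changes the transcription of nearby genes. In the uterus the receptor is present in epithelium, stroma and muscle, where P4 opposes the growth effect of estrogen on the epithelium and prepares the tissue for embryo attachment and the stromal change called decidualization. Genes can respond to such a hormone within hours, as direct targets often do, or after a delay, and a response can fade while the hormone is still being given.

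Values are the deposited Affymetrix signal, scaled to a common level. An effect is the log2 fold change of P4 over vehicle, from 3 arrays against 3. Before this, 32 was added to each signal, so changes of dim genes are understated. The standard error given with an effect uses a spread estimated over the arrays of both genotypes. A probe set, the group of probes that reads out a transcript, passed a test where its limma p-value was under 0.05 after Benjamini-Hochberg adjustment across the 12422 probe sets tested. "Rose" and "fell" are written of passing effects. Probe sets whose names end in _f_at, _r_at or _s_at share probes with related sequences or have fewer specific probes, so their signal may hold that of other transcripts. Such probe sets gave the values of Acod1 (_s_at), Sem1 and Clca1 (_r_at), and Spsb1 and Egfbp2 (_f_at), among others.

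As a check of the tissue label, the median percentile of mean signal was 95.7 for smooth muscle, 81.7 for endometrial stroma and 74.1 for uterine epithelium markers, against 58.4 over all genes, and it was 37.6 for skeletal muscle and 76.1 for adipose tissue markers. The Pgr probe set, which reads the gene disrupted in PRKO mice, was dim, at percentile 22.4 of mean signal. Its mean signal at 40 h was 156 after P4 and 147 after vehicle in wild type, against 116 and 129 in PRKO uteri. At 4 h it was 121 after P4 and 145 after vehicle in wild type, against 115 and 126 in PRKO uteri. Where its probes lie against the disrupted stretch of the gene is not known here, so it checks no label. The Gapdh 3'/5' ratio, which rises as RNA degrades, was 3.25 on replicate 2 of the 4 h P4 group and 3.67 on replicate 2 of the 4 h vehicle group, and between 1.23 and 1.60 on the other 10 wild-type arrays. Adipose tissue markers summed to between 10319 and 15610 on the 40 h P4 arrays, against 20397 to 23825 on the 40 h vehicle arrays (two-sided exact permutation p = 0.1, which is the lowest value that groups of 3 allow). At 4 h they summed to between 19454 and 25214 after P4, against 22475 and 26665 after vehicle (exact p = 0.4). Since uteri were measured whole, fewer cells of a type and less RNA per cell cannot be told apart.

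**Figure D1:**
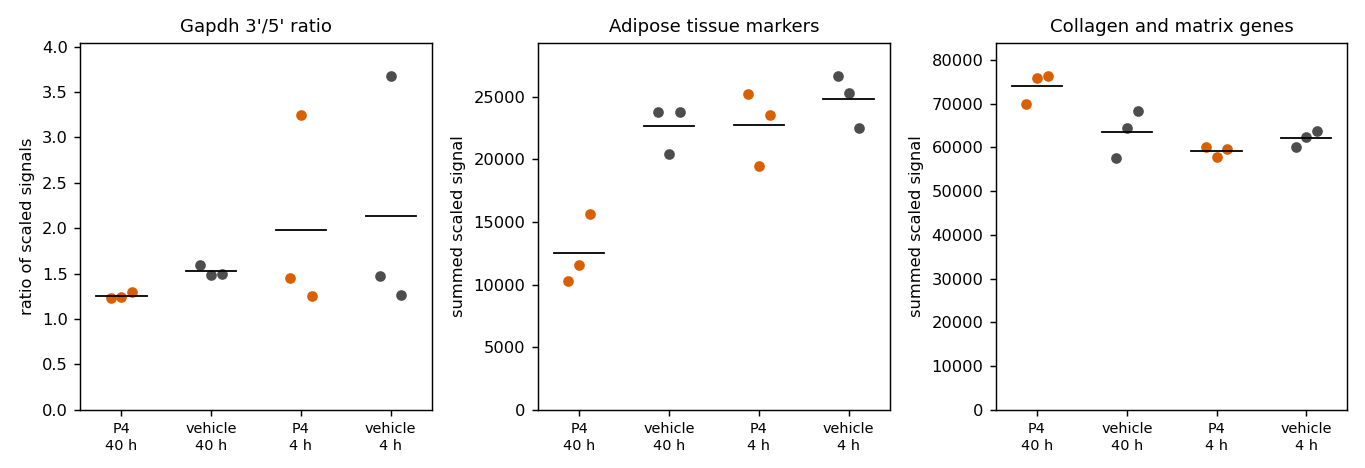
Each point is 1 wild-type array and each bar the mean of 3, for the Gapdh 3'/5' ratio (left), the summed scaled signal of 15 adipose tissue markers (middle) and of 45 collagen and matrix genes (right), in P4 (orange) and vehicle (grey) uteri. The 3 P4 arrays of 40 h have the lowest adipose sums, 10319 to 15610, and the highest matrix sums, 69937 to 76326, while the 2 high Gapdh ratios, 3.25 and 3.67, belong to 4 h arrays.

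The P4 effect differed between 40 h and 4 h for 59 probe sets (0.475% of those tested), 27 of them with a higher effect at 40 h (0.217%) and 32 with a lower one (0.258%). The 53 that name a single gene stand for 50 genes. Their differences had a median size of 0.89 on the log2 scale and ran in size between 0.48 and 3.31. At an unadjusted p under 0.05 the share was 6.39%. P4 against vehicle passed for 191 probe sets at 40 h (1.54%) and for 88 at 4 h (0.708%). The arrays of P4 and vehicle did not overlap for 19.8% of probe sets at 40 h and 6.67% at 4 h, against which statements on overlap below should be read. Few passed at both times: 18, of which 14 had the same direction and 4 opposite directions. These 18 were 9.42% of the 191 and 20.5% of the 88.

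Across the times, whose arrays are all different, probe sets that fell at either time or rose at 40 h leaned the same way at the other. Those that rose at 4 h were above 0 at 40 h about as often as all probe sets. In each set, most were not past even an unadjusted threshold in the same direction at the other time. Over all probe sets, 50.6% had an effect above 0 at 4 h and 50.2% at 40 h. Of the 89 probe sets that rose at 40 h (0.716%), 54 (60.7%) had an effect above 0 at 4 h. There 19 (21.3%) had an unadjusted p under 0.05 upward, against 3.73% of all probe sets. Of the 102 that fell at 40 h (0.821%), 30 (29.4%) had an effect above 0 at 4 h. There 19 (18.6%) had an unadjusted p under 0.05 downward, against 2.50% of all (6.23% of all in either direction). Of the 65 that rose at 4 h (0.523%), 35 (53.8%) had an effect above 0 at 40 h, with a median of 0.02. There 19 (29.2%) had an unadjusted p under 0.05 upward, against 5.50% of all. Another 7 (10.8%) had one downward, against 6.21% of all (11.7% of all in either direction). The 23 that fell at 4 h (0.185%) had a median of −0.17 at 40 h, where 7 (30.4%) were above 0. There 10 (43.5%) had an unadjusted p under 0.05 downward. Over all 12422 probe sets the effects correlated with r = 0.233, a description across probe sets that are not independent of each other.

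The tests sorted probe sets into classes, and the classes restate them. Where the time difference passed, a response was called reversed if the effects had opposite signs, each with an unadjusted p under 0.05. It was called transient if the effect passed at 4 h and not at 40 h, and late if it passed at 40 h and not at 4 h. Where both effects passed in the same direction and the difference did not, it was called sustained. There were 13 transient (0.105%), 26 reversed (0.209%), 20 late (0.161%) and 14 sustained probe sets (0.113%). A further 51 passed at 4 h (0.411%) and 144 at 40 h (1.16%) without a resolved time course. At the threshold, Tmod3 and Sem1 were the last to pass the time difference (0.52 and 0.67, both with an adjusted p of 0.0487) and a probe set of Scd1 the nearest outside (−1.05, adjusted p = 0.0555).

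**Figure D2:**
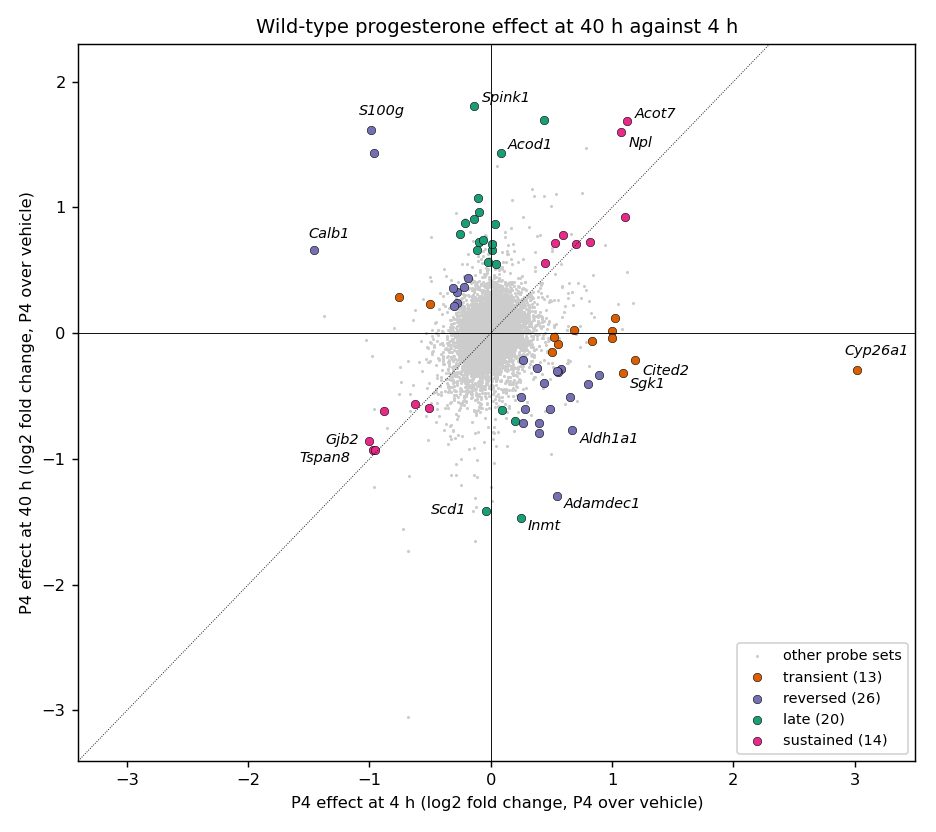
Each point is a probe set, with the wild-type P4 effect at 40 h on the vertical axis and at 4 h on the horizontal axis, both as log2 fold change of P4 over vehicle from 3 arrays against 3. Colours mark the 4 classes, the dotted line marks equal effects, and Cyp26a1 lies alone at −0.29 and 3.02 while S100g lies at 1.61 and −0.99.

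Transient responses were mostly rises: 11 of the 13 probe sets rose at 4 h and showed effects between −0.32 and 0.12 at 40 h, and 2 fell at 4 h. The largest transient difference belonged to Cyp26a1, the enzyme that breaks down retinoic acid. Its signal was 136, 121 and 121 in P4 uteri and 120.1, 199 and 175 in vehicle uteri at 40 h. At 4 h it was 1212, 1171 and 725 in P4 uteri, against 98.0, 103 and 89.4 in vehicle uteri. The 4 h groups lay far apart and the 40 h groups overlapped. The effect was −0.29 ± 0.16 at 40 h and 3.02 ± 0.16 at 4 h, 8.10-fold after the offset, and the difference was −3.31 ± 0.22 (limma adjusted p = 1.74e-08).

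Cited2, a co-regulator that binds the acetyltransferase CBP, had signals of 990.0, 787 and 662 after P4 and 972, 1060.0 and 794 after vehicle at 40 h. At 4 h its signals were 1676, 1707 and 1589 after P4, against 682, 609 and 850.4 after vehicle. All 3 P4 arrays of 4 h exceeded every other wild-type array, and the 40 h groups overlapped (difference −1.41 ± 0.21, limma adjusted p = 0.00168). Sgk1, the steroid-inducible kinase that raises ion channel activity, had 632, 504 and 645 after P4 and 829.5, 728 and 679 after vehicle at 40 h. At 4 h Sgk1 had 1931, 1884 and 1878 after P4, against 901, 650.0 and 1142 after vehicle. Its P4 arrays lay below vehicle at 40 h and above vehicle at 4 h without overlap, though the 40 h effect did not pass (−0.32 ± 0.18). The Sgk1 difference was −1.40 ± 0.26 (limma adjusted p = 0.00976). It lost its call without both 4 h arrays of high Gapdh ratio (adjusted p = 0.0632), where it was −1.20.

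The promoters of these genes are shown because their rise at 4 h was gone at 40 h and they carry motifs of the nuclear receptor type. The 250 bases before the annotated start of Cyp26a1 (RefSeq, GRCm38.p6, chr19:37697558-37697807, plus strand) and of 1 of the 6 listed starts of Sgk1 (chr10:21993640-21993889, plus strand) read as follows, 5′ to 3′, with the motifs in capitals.
Cyp26a1: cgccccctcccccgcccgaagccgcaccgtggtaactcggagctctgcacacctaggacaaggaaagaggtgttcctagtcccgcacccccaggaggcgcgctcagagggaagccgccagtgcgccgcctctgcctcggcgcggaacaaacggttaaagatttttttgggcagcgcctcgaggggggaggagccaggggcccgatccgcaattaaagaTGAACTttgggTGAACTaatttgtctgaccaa
Sgk1: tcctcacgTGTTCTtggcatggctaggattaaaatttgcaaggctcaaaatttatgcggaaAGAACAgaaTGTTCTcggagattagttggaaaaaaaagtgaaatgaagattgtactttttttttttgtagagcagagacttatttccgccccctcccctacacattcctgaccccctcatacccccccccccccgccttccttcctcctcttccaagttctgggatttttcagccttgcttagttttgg
In Sgk1 the capitals mark TGTTCT or its complement AGAACA, the half-site that progesterone and glucocorticoid receptors recognize, searched on both strands. The half-site occurred 3 times, and 2 of these face each other 3 bases apart, an arrangement found without mismatch in 3 of 32851 promoter windows of the same length (0.00913%). The half-site alone was in 5284 windows (16.1%). In Cyp26a1 the capitals mark TGAACT, a half-site of the retinoic acid receptor type, present 2 times in the same direction 5 bases apart. That repeat was in 7 of the 32851 windows (0.0213%), and TGAACT or its complement in 11.8%. Over the classes, the TGTTCT half-site was in the windows of 2 of 11 transient genes with a window, 2 of 15 reversed, 0 of 9 late and 2 of 10 sustained genes. Counted by window it was in 4 of 17, 2 of 23, 0 of 10 and 2 of 18, against 16.1% of all windows. TGAACT and the genes shown were chosen after their values were seen. Of the 6 Sgk1 starts, the one whose window held most half-sites is shown. The rarity of its pair among single windows is therefore that of a window picked for the motif. A match is a description of the letters only.

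The remaining transient rises had differences between −1.03 and −0.55. Pip5k1b, a kinase that makes signalling phosphoinositides, had 222, 169 and 218 after P4 and 216, 207 and 199 after vehicle at 40 h, and at 4 h 395, 447 and 294 after P4 against 162, 176 and 176 after vehicle (difference −1.03 ± 0.15, limma adjusted p = 0.00141). Its other probe set gave −0.16. Ggct, an enzyme of glutathione breakdown, had 157, 137 and 138 after P4 and 144, 125 and 121 after vehicle at 40 h, and at 4 h 350.4, 337 and 320.5 after P4 against 145, 136 and 168 after vehicle (difference −0.90 ± 0.13, limma adjusted p = 0.00099). In both genes the groups were apart at 4 h and overlapped at 40 h, where the effects were −0.04 and 0.12 and did not pass. The other transient rises were the kinase gene Bmp2k (−0.99), the mono-ADP-ribosyltransferase Tiparp (−0.89), the palmitoyltransferase Zdhhc3 (−0.66), the pyrophosphate transporter Ank (−0.65), the proton pump subunit Atp6v1b2 (−0.64) and Pdxdc1 (−0.55).

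Both transient falls were of the opposite kind. Pla2g4a, the phospholipase that releases arachidonic acid for prostaglandin synthesis, had 348, 284 and 327 after P4 and 229.5, 271 and 266 after vehicle at 40 h. At 4 h Pla2g4a had 145, 203 and 142 after P4, against 240.5, 384 and 275 after vehicle. The groups did not overlap at either time, with opposite order, and the difference was 1.04 ± 0.20 (limma adjusted p = 0.0142). It missed the threshold without replicate 1 of the 4 h P4 group (0.98, adjusted p = 0.0525) or replicate 1 of the 40 h vehicle group (0.98, adjusted p = 0.0516). H2az1, a histone variant gene, fell at 4 h (−0.50 ± 0.11) and had 0.23 ± 0.11 at 40 h. Its difference of 0.74 ± 0.16 (adjusted p = 0.043) lost its call when any of 9 of the 12 wild-type arrays was left out (adjusted p up to 0.124).

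Reversed responses included the calcium-binding protein genes, with the highest differences of all. S100g, the small cytosolic calbindin that buffers and carries calcium in epithelia, had 2633, 2260.0 and 2073 after P4, against 788, 872 and 573 after vehicle at 40 h. At 4 h S100g had 287, 235 and 239 after P4, against 433, 461 and 754 after vehicle. The P4 arrays were all above vehicle at 40 h and all below it at 4 h. The effect was 1.61 ± 0.17 at 40 h and −0.99 ± 0.17 at 4 h, and both passed. The difference was 2.60 ± 0.23 (limma adjusted p = 1.31e-06), and the other probe set of S100g gave 2.40 ± 0.19 (limma adjusted p = 2.86e-07).

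Calb1, the larger calbindin, had 2677, 2099 and 2386 after P4 and 1866, 1499 and 1189 after vehicle at 40 h. At 4 h Calb1 had 588, 638 and 488 after P4, against 1624, 1372 and 1874 after vehicle. The groups did not overlap at either time, but the rise at 40 h did not pass (0.66 ± 0.29) while the fall at 4 h did (−1.45 ± 0.29). The difference was 2.11 ± 0.42 (limma adjusted p = 0.0164), and it missed the threshold without replicate 3 of the 4 h vehicle group (2.00, adjusted p = 0.0528), replicate 1 of the 40 h P4 group (2.03, with an adjusted p that rounds to 0.05) or replicate 3 of the 40 h vehicle group (1.95, adjusted p = 0.0591).

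The S100g promoter is shown because both of its probe sets reversed and passed at both times (RefSeq, GRCm38.p6, chrX:162964600-162964849, minus strand), read 5′ to 3′ on the strand of the gene, with AGGTCA or its complement TGACCT, the half-site of estrogen and many other nuclear receptors, in capitals.
S100g: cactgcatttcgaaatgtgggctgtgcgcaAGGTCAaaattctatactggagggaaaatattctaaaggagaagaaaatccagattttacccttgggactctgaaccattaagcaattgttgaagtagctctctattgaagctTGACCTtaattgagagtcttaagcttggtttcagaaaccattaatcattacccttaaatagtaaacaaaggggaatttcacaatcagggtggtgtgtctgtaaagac
The motif begins 220 and 107 bases before the start, and it is in 4607 of the 32851 windows.

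The other reversals above vehicle at 40 h and below it at 4 h were Sem1, Alox12e, Acyp2, Maged2, Tmod3 and Casp1, with differences between 0.51 and 0.67. Sem1, a proteasome component, was the largest, at 0.67 ± 0.15, but lost its call when any of 10 of the 12 wild-type arrays was left out (adjusted p up to 0.144). It was also the only one of the 59 whose vehicle arrays differed between the times with an adjusted p under 0.05 (−0.51).

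In the other direction, 17 probe sets lay below vehicle at 40 h and above it at 4 h. Aldh1a1, a retinaldehyde dehydrogenase that makes retinoic acid, had 539, 651 and 568 after P4, against 905, 982 and 1188 after vehicle at 40 h. At 4 h Aldh1a1 had 1708, 1606 and 1477 after P4, against 923, 853 and 1229 after vehicle. The groups were apart at both times, and both effects passed, at −0.77 ± 0.12 and 0.67 ± 0.12 (difference −1.44 ± 0.17, limma adjusted p = 0.000101). A dimmer second probe set, at percentile 7.71 of mean signal, gave 0.12.

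Adamdec1, a secreted metalloprotease-like gene of myeloid cells, had 154, 142 and 156 after P4, against 324, 419 and 528 after vehicle at 40 h. At 4 h Adamdec1 had 464, 341 and 262 after P4, against 210.1, 317 and 175 after vehicle. The groups overlapped at 4 h and not at 40 h, and the effects were −1.29 ± 0.21 and 0.55 ± 0.21, of which the 40 h one passed (difference −1.84 ± 0.29, limma adjusted p = 0.00255). Its vehicle arrays differed by 0.79 between 40 h and 4 h, which did not pass (adjusted p = 0.0836).

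Pigr, the receptor that carries immunoglobulin A across epithelia, had 539.6, 638 and 651 after P4 and 669, 898 and 890.4 after vehicle at 40 h. At 4 h Pigr had 1229, 1492 and 713 after P4, against 663, 651 and 541 after vehicle. The order of the groups turned between the times without overlap at either. The difference of −1.20 ± 0.25 (limma adjusted p = 0.024) lost its call when any of 7 of the 12 wild-type arrays was left out (adjusted p up to 0.0873). Spsb1, a ubiquitin ligase adaptor gene, had effects of −0.79 ± 0.18 and 0.40 ± 0.18 and a difference of −1.19 ± 0.26. Its other probe set gave −1.06, and the call was lost without any of 8 of the 12 arrays (adjusted p up to 0.136).

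The rest of the named reversals in that direction had differences between −1.16 and −0.48. They were the acetyl-CoA synthetase Acss1, the mucin-like Parm1, the dipeptidase Cndp2, Ndrg1 at 2 probe sets, the kallikrein-family Egfbp2, the creatine kinase Ckmt1, the potassium channel Kcnk1, the glypican Gpc4 and the tetraspanin Cd82. Of these, Parm1 also passed at both times (−0.61 and 0.49). Thus 4 of the 26 reversals passed in both directions on their own, the 2 probe sets of S100g, Aldh1a1 and Parm1, and the others rest on an unadjusted p at 1 or both times.

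Late responses were mostly rises, 16 of 20. Spink1, a secreted inhibitor of trypsin-like proteases, had 585, 443 and 238 after P4, against 88.3, 101 and 82.6 after vehicle at 40 h. At 4 h Spink1 had 75.5, 80.7 and 91.1 after P4 and 86.8, 102 and 92.1 after vehicle. The 4 h groups overlapped, and the lowest P4 array of 40 h was above every other wild-type array. The effect was 1.81 ± 0.17 at 40 h, 3.51-fold after the offset, and −0.14 ± 0.17 at 4 h (difference 1.94 ± 0.25, limma adjusted p = 0.000244).

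Acod1, the enzyme that makes itaconate and is known from activated macrophages and from the uterus at implantation, had 1050.0, 960.0 and 810.4 after P4, against 381, 317 and 284 after vehicle at 40 h. At 4 h Acod1 had 301, 297 and 299.5 after P4 and 349, 232 and 272 after vehicle. The 40 h groups were far apart and the 4 h P4 arrays fell inside the vehicle range (difference 1.36 ± 0.21, limma adjusted p = 0.00206). These values are from a probe set of the _s_at type. A dimmer probe set without such an ending, at percentile 7.11 of mean signal, gave 0.39, which did not pass (limma adjusted p = 0.303). Macrophage and myeloid markers had 0 of 23 passing by limma at either time (unadjusted p under 0.05 in 3 at 40 h and 1 at 4 h), and they summed to between 8926 and 9640 after P4, against 8259 and 9100.2 after vehicle at 40 h.

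The Acod1 promoter is shown as that of a late rise (1.44 at 40 h), chosen after the values were seen (RefSeq, GRCm38.p6, chr14:103046762-103047011, plus strand, 5′ to 3′, AGGTCA in capitals, 1 match).
Acod1: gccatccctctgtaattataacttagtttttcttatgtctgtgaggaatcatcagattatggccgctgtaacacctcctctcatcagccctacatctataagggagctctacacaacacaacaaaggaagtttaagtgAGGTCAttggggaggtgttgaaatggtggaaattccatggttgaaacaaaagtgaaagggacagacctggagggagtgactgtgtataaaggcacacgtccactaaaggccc
It holds none of the TGTTCT half-sites, as none of the 9 late genes with a window did. These genes had 10 windows, too few to show a lack of a half-site found in 16.1% of all windows.

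Among the other late rises, Ptgr1, a reductase that inactivates prostaglandins and leukotrienes, had 676, 539 and 532 after P4, against 293, 304 and 306 after vehicle at 40 h. At 4 h Ptgr1 had 232, 224 and 176 after P4, against 247, 239 and 259 after vehicle. P4 arrays were above vehicle at 40 h and below it at 4 h (difference 1.09 ± 0.17, limma adjusted p = 0.00211).

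Col1a2, a chain of the main fibrillar collagen, had 4461, 5503 and 5772 after P4, against 2812, 2851 and 3395 after vehicle at 40 h. At 4 h Col1a2 had 1713, 1761 and 1942 after P4 and 1746, 2112 and 2727 after vehicle. The groups were apart at 40 h and overlapped at 4 h. The differences were 1.04 ± 0.20 for Col1a2 (limma adjusted p = 0.0164), 1.05 ± 0.23 for Col3a1 (adjusted p = 0.043) and 0.65 ± 0.14 for Col5a2 (adjusted p = 0.0409), both of them other fibrillar collagens. The remaining probe sets of Col3a1 gave 1.08 and 1.12, and that of Col1a2 gave −0.09. Col1a2 lost its call when any of 5 of the 12 wild-type arrays was left out (adjusted p up to 0.0587), Col3a1 with any of 9 (up to 0.135) and Col5a2 with any of 10 (up to 0.102).

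D430019H16Rik, a gene with no role given here, had 848, 896 and 755 after P4, against 389, 452 and 392 after vehicle at 40 h, and overlapping groups at 4 h (difference 1.06 ± 0.16, limma adjusted p = 0.00151). S100a10, an annexin-binding member of the S100 family, had a difference of 0.70 ± 0.14 (adjusted p = 0.024), lost without any of 7 of the 12 wild-type arrays (up to 0.0772). A second S100a10 probe set gave −0.16. The other named late rises were the lumen calcium-binding protein gene Rcn1 (0.83), Alox12e (0.82) and the growth cone protein gene Gap43 (0.81). The ribosomal protein gene Rpl13a (0.58) and the protein repair methyltransferase Pcmt1 (0.51) completed them. Alox12e counts in both classes, as its other probe set is among the reversals above.

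The 4 late falls were Inmt, Scd1, Bhlhe40 and Kcnq1. Inmt, a methyltransferase for indoles, had 693, 646 and 1322 after P4, against 2356, 2306 and 2489 after vehicle at 40 h. At 4 h Inmt had 3486, 2844 and 3318 after P4 and 3172, 2449 and 2524 after vehicle. P4 arrays were below vehicle at 40 h and overlapped it at 4 h (difference −1.71 ± 0.28, limma adjusted p = 0.00269).

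Scd1, the desaturase that makes monounsaturated fatty acids, had 1901, 1843 and 3160.0 after P4, against 5920.0, 5551 and 6582 after vehicle at 40 h, and overlapping groups at 4 h (difference −1.38 ± 0.26, limma adjusted p = 0.0127). Its other probe sets gave −1.05 and −0.09, and the call was lost without replicate 2 of the 40 h P4 group (−1.24, adjusted p = 0.0534). In both genes the P4 array of 40 h with the highest adipose marker sum, replicate 3, was also the highest of its group. That is the order of single arrays in a group of 3, and a link was not tested. The repressor of clock genes Bhlhe40 had a difference of −0.89 ± 0.16 (adjusted p = 0.00531) and the potassium channel Kcnq1 one of −0.70 ± 0.12 (adjusted p = 0.0033), and the other probe set of Kcnq1 gave −0.17.

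With the adipose score of each array, the mean log2 signal of the adipose markers, as a covariate, 14 probe sets passed the time difference, 13 of them among the 59, and all 59 kept their direction. The difference was then −0.75 ± 0.25 for Scd1, −1.41 ± 0.34 for Inmt, −0.59 ± 0.17 for Bhlhe40, −1.03 ± 0.31 for Sgk1 and 1.40 ± 0.47 for Calb1, none of which passed. Of the late responses given with a standard error above, Spink1 alone kept its call, and the differences of Acod1 (1.19, adjusted p = 0.113), Ptgr1 (0.87, adjusted p = 0.142), D430019H16Rik (0.96, adjusted p = 0.0872), Col1a2 (adjusted p = 0.152), Col3a1, Col5a2, S100a10 and Kcnq1 (−0.64, adjusted p = 0.127) did not pass either. Pla2g4a (0.96, adjusted p = 0.272), Pigr (−1.32, adjusted p = 0.15), H2az1, Sem1 and Spsb1 also lost their calls. It was −3.60 ± 0.27 for Cyp26a1, −1.58 ± 0.27 for Cited2, −1.54 ± 0.22 for Aldh1a1, 2.36 ± 0.29 for S100g and 1.41 ± 0.25 for Spink1, all of which passed. The score separates the 40 h groups, and the median standard error of a time difference over all probe sets was 0.183 with it and 0.144 without it.

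**Figure D3:**
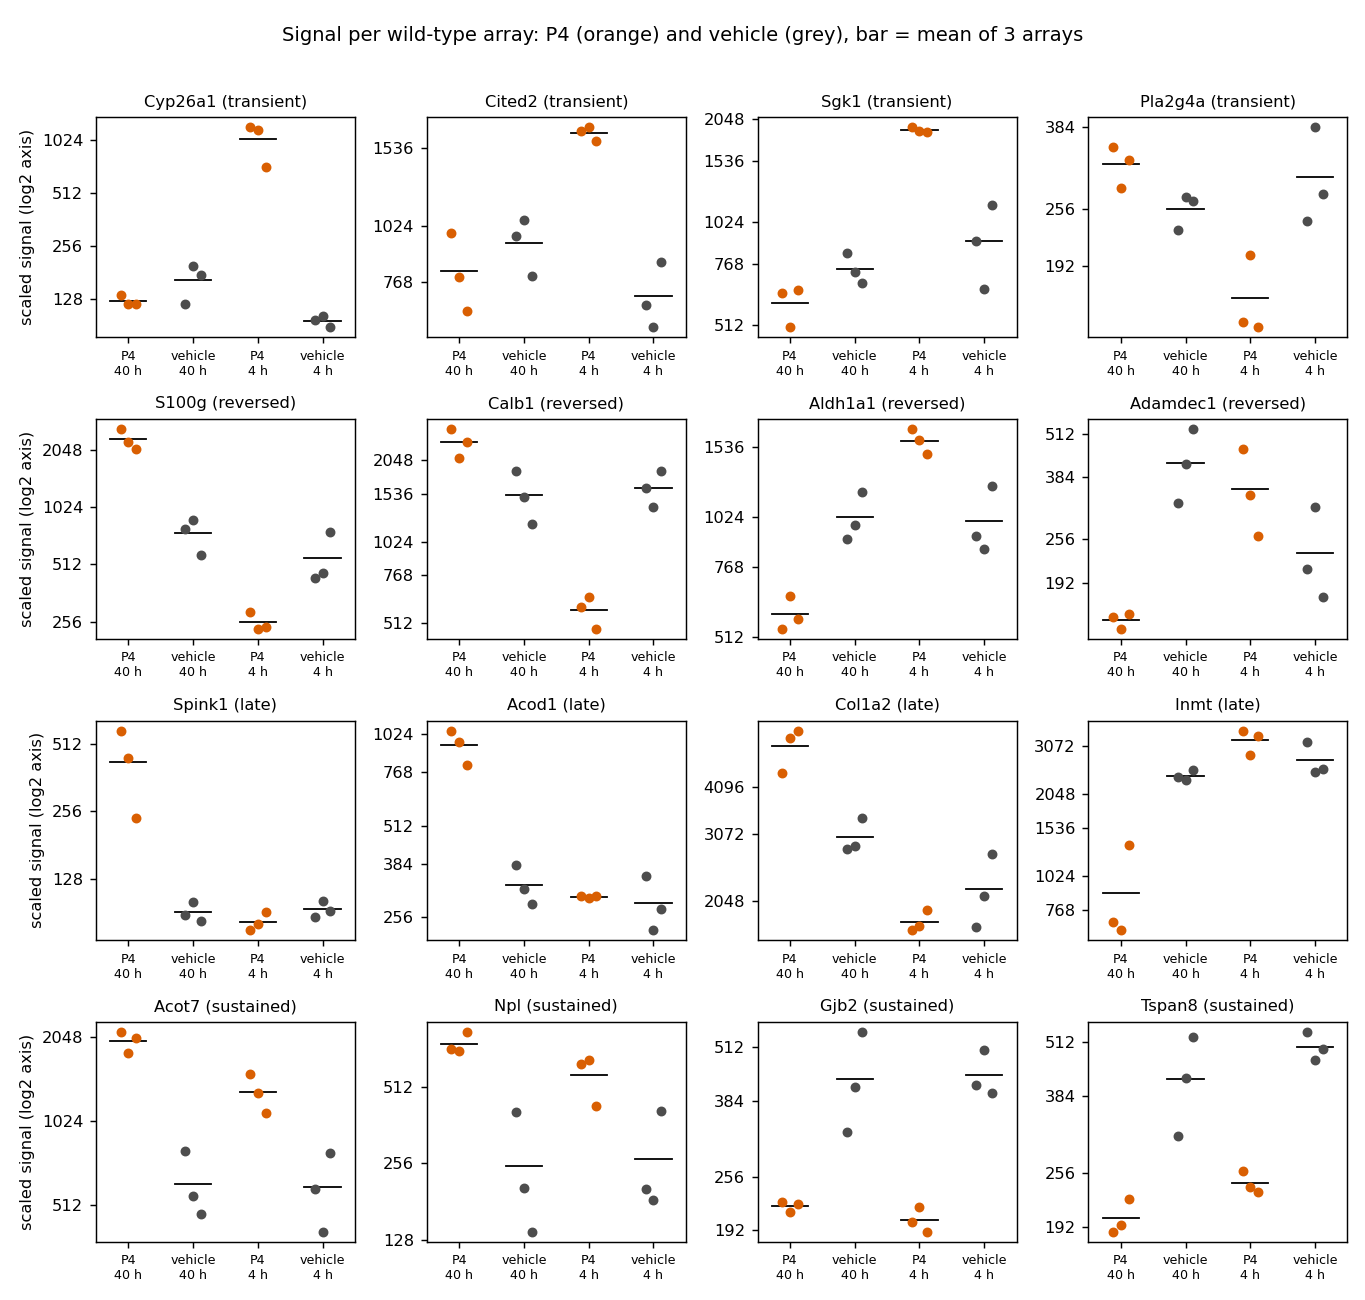
Scaled signal (log2 axis) of 16 genes on each wild-type array, with P4 in orange, vehicle in grey and bars at the mean of 3 arrays, 1 row of panels per class. Cyp26a1, Cited2 and Sgk1 stand out at 4 h after P4, S100g and Calb1 lie above vehicle at 40 h and below it at 4 h, Spink1 and Acod1 stand out at 40 h, and the sustained genes are displaced at both times.

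Sustained responses were found for 14 probe sets, 8 raised and 6 lowered. Acot7, an acyl-CoA thioesterase, had 2132, 1792 and 2031 after P4, against 800.2, 549 and 476 after vehicle at 40 h. At 4 h Acot7 had 1506, 1294 and 1097 after P4, against 583, 409.7 and 784 after vehicle. The groups were apart at both times, with effects of 1.68 ± 0.17 and 1.13 ± 0.17. Its difference of 0.56 did not pass. The 95% confidence interval of 0.06 to 1.06, not adjusted for the number of probe sets, nevertheless lies above 0. For Acot7 the class sustained thus does not mean equal effects.

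Npl, the lyase that breaks down sialic acid, had 727, 708 and 843 after P4, against 408, 205 and 138 after vehicle at 40 h. At 4 h Npl had 631, 656 and 429.5 after P4, against 203, 183 and 412 after vehicle. P4 arrays were higher at both times, with effects of 1.60 ± 0.25 and 1.08 ± 0.25 (interval of the difference −0.21 to 1.26). The chloride-proton exchanger Clcn5 rose by 0.71 and 0.70 (interval of the difference −0.35 to 0.36). Other sustained rises included those of the innate immune adaptor Myd88, the glucose transporter Slc2a3 and the homeodomain gene Hopx.

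Among the sustained falls, Gjb2, a gap junction protein gene that estrogen raises in the uterus, had 224, 212 and 222 after P4, against 325, 415 and 555 after vehicle at 40 h. At 4 h Gjb2 had 200.4, 218 and 191 after P4, against 418, 506 and 400.4 after vehicle. The P4 arrays were lower at both times, with effects of −0.85 ± 0.17 and −1.005 ± 0.17 (interval of the difference −0.35 to 0.65). The tetraspanin Tspan8 fell by 0.93 and 0.95 on the log2 scale (interval −0.46 to 0.52), the carbonic anhydrase Car2 by 0.93 and 0.97 (−0.38 to 0.46) and the ephrin Efnb2 by 0.62 and 0.88 (−0.10 to 0.63). Prxl2a completed the named sustained falls. The median 95% interval of a time difference over all probe sets reached 0.30 to either side, so smaller differences could not be resolved.

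Many responses could not be sorted. The 51 probe sets that passed at 4 h alone had a median difference of −0.51 in the 39 that rose and 0.35 in the 12 that fell, which is the direction of fading in each case. The 144 that passed at 40 h alone had median differences of 0.50 in the 60 that rose and −0.49 in the 84 that fell, the direction of a later onset. Such directions follow in part from picking probe sets by the effect at the time where it was large.

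The time differences lay in the P4 arrays more than in the vehicle arrays. Compared directly between 40 h and 4 h, 873 probe sets differed in P4 uteri (7.03%, of which 3.61% were higher and 3.42% lower at 40 h) and 36 in vehicle uteri (0.29%). At an unadjusted p under 0.05 the shares were 22.3% in P4 and 15.3% in vehicle uteri, so the vehicle uteri were not unchanged over time. Of the 59, 57 differed between the P4 groups and 1, Sem1, between the vehicle groups. The median size of the change over time among the 59 was 0.84 in P4 uteri and 0.16 in vehicle uteri. In 2 of the 59 the change was larger in vehicle uteri. These were H2az1 (−0.44 in vehicle and 0.30 in P4 uteri) and Sem1 (−0.51 and 0.15). These comparisons share arrays with the time difference, so they locate it and do not test it again.

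The PRKO arrays did not enter the wild-type effects, but they shared the estimate of spread behind the wild-type p-values and classes. Leaving out single PRKO arrays gave 46 to 67 wild-type time differences, and the wild-type arrays alone gave 26. In PRKO uteri no probe set passed the same time difference (limma, 0 of 12422, with 397 at an unadjusted p under 0.05, 3.2%). None passed P4 against vehicle at 40 h (831 unadjusted, 6.69%) or at 4 h (236 unadjusted, 1.9%). The 59 differences had a median size of 0.89 in wild-type and 0.17 in PRKO uteri, where the median over all probe sets was 0.10 and 0.11. In 37 of the 59 the PRKO difference had the same sign as the wild-type one, and in 9 (15.3%) it had an unadjusted p under 0.05. These 9 were the probe sets of Gap43, Inmt, Pla2g4a, Ptgr1, Rcn1, Scd1 and Parm1 and 2 of Ndrg1. For the 16 late rises, the P4 effect at 40 h had a median of 0.83 in wild-type and 0.27 in PRKO uteri. In PRKO uteri that effect had an unadjusted p under 0.05 for 7 of the 16, against 6.69% of all probe sets.

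The wild-type difference departed from the PRKO one for 4 probe sets (0.0322%, with 412 or 3.32% at an unadjusted p under 0.05). These were both of S100g and Spink1, higher in wild type, and Cyp26a1, lower (0.00805%). Cyp26a1 had −3.31 ± 0.22 in wild-type and −0.01 ± 0.22 in PRKO uteri (limma adjusted p = 1.1e-05 for the genotype difference). S100g had 2.60 and 2.40 in wild-type, against 0.06 and 0.06 in PRKO uteri (adjusted p = 0.00071 and 0.00019). Spink1 had 1.94 ± 0.25, against −0.08 ± 0.25 (adjusted p = 0.027). For Gap43 the values were 0.81 and 0.73, for Inmt −1.71 and −0.99, and for Pla2g4a 1.04 and 0.69, none with a genotype difference that passed. For the 55 others of the 59, a difference between the genotypes was thus not shown.

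**Figure D4:**
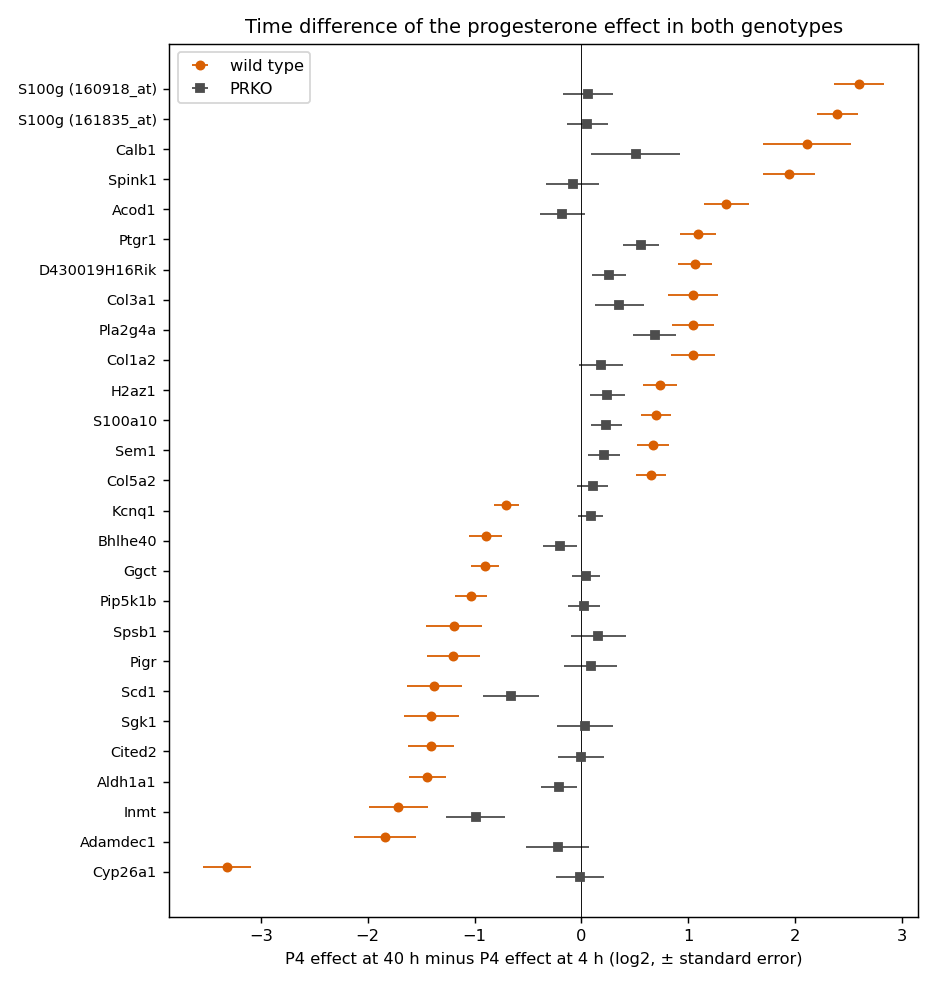
The P4 effect at 40 h minus that at 4 h (log2, points with standard error) for the named probe sets that passed in wild type, in wild-type (orange circles) and PRKO uteri (grey squares). The wild-type values run between −3.31 for Cyp26a1 and 2.60 for S100g, and most PRKO values lie near 0, and of those plotted, which do not include Gap43, the values of Inmt (−0.99), Pla2g4a (0.69) and Scd1 (−0.66) lie farthest from it.

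Gene lists are described by counts and medians over measured genes, each gene by its brightest probe set. Over all 8251 genes, 1.77% passed at 40 h, 0.861% at 4 h and 0.545% the time difference, and all 3 medians were 0.00. Of the 8251, 4035 had a time difference above 0, against which counts of signs should be read. Members of a list share arrays and are not independent of each other. Known progesterone targets of the uterus had 5 of 34 members passing at 40 h, 4 of which rose, and 8 at 4 h, all rising. The medians were 0.13 and 0.25. In the time difference Acod1 was higher and Cyp26a1, Cited2 and Sgk1 were lower, while the other 30 did not pass. Members with a 4 h rise that did not pass the difference included the hedgehog ligand Ihh (0.26 at 40 h and 0.52 at 4 h), the activin-binding Fst (0.70 and 0.94) and the zinc finger factor Gata2 (0.13 and 0.59). Members that rose at 40 h were the prostaglandin receptor Ptger3 (1.33 and 0.05), the endocytic receptor Lrp2 (1.11 and 0.54) and the homeobox gene Hoxa11 (0.66 and 0.50).

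Of 22 measured retinoid genes, Cyp26a1, which degrades retinoic acid, and Aldh1a1, which makes it, had a lower effect at 40 h than at 4 h. Rbp4, the blood carrier of retinol that fat also makes, fell at 40 h (−1.38, and −0.12 at 4 h), and the binding protein gene Crabp1 rose (0.73 and 0.04). None of the other 18 passed at either time. Among 19 calcium-binding and transport genes, S100g, Calb1 and S100a10 passed the difference, 16 of 19 differences were above 0, and the list's median difference was 0.11.

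Genes shared by glucocorticoid and progestin responses had a median effect of −0.26 at 40 h and 0.09 at 4 h over 28 members. Of these, 24 had a difference below 0 and 1, Sgk1, passed it (median difference −0.38 in wild-type and −0.21 in PRKO uteri). Fkbp5, a receptor co-chaperone, had −0.23 and 0.41, and Zbtb16, a zinc finger repressor, −0.22 and 0.65, neither passing at either time, and their PRKO differences were −0.49 and −0.65. Tissue kallikreins, secreted serine proteases, had medians of −0.06 and 0.32 over 11 members, with Klk1 rising at 4 h (0.70) and 0 passing the difference by limma (4 with an unadjusted p under 0.05). Egfbp2, a relative that the list does not hold, passed the difference, as given above. Members of this family are near-identical, so their probe sets may share signal.

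Collagen and matrix genes had medians of 0.14 at 40 h and −0.04 at 4 h over 45 members, of which 6 rose and 2 fell at 40 h, 0 passed at 4 h (2 with an unadjusted p under 0.05), and Col1a2, Col3a1 and Col5a2 passed the difference. Smooth muscle markers had 0 of 15 passing at either time by limma (unadjusted p under 0.05 in 8 at 40 h and 0 at 4 h), and all 15 differences were above 0 (median 0.27 in wild-type and 0.19 in PRKO uteri). Adipose tissue markers had 7 of 15 falling at 40 h and 0 at 4 h (2 with an unadjusted p under 0.05), with medians of −0.79 and −0.14. Their median difference was −0.84 in wild-type and −0.28 in PRKO uteri, and 0 of 15 passed it (10 with an unadjusted p under 0.05). Stroma markers summed to between 44594 and 48628 after P4, against 34495 and 41114 after vehicle at 40 h. That list holds Col1a1, Col1a2 and Col3a1. Its median effect was 0.06 at 40 h, and 12 of its 24 differences were above 0. Epithelium markers at 40 h summed to between 20929 and 23404 after P4, against 24440 and 25525 after vehicle. Their median effect was below 0 at both times (−0.18 at 40 h and −0.14 at 4 h), with a median difference of −0.04. The part of these shifts in the late responses was not tested. The adipose covariate above cannot tell it apart from the P4 effect, since the score separates the 40 h groups. That score also holds no stroma, epithelium or smooth muscle markers.

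**Figure D5:**
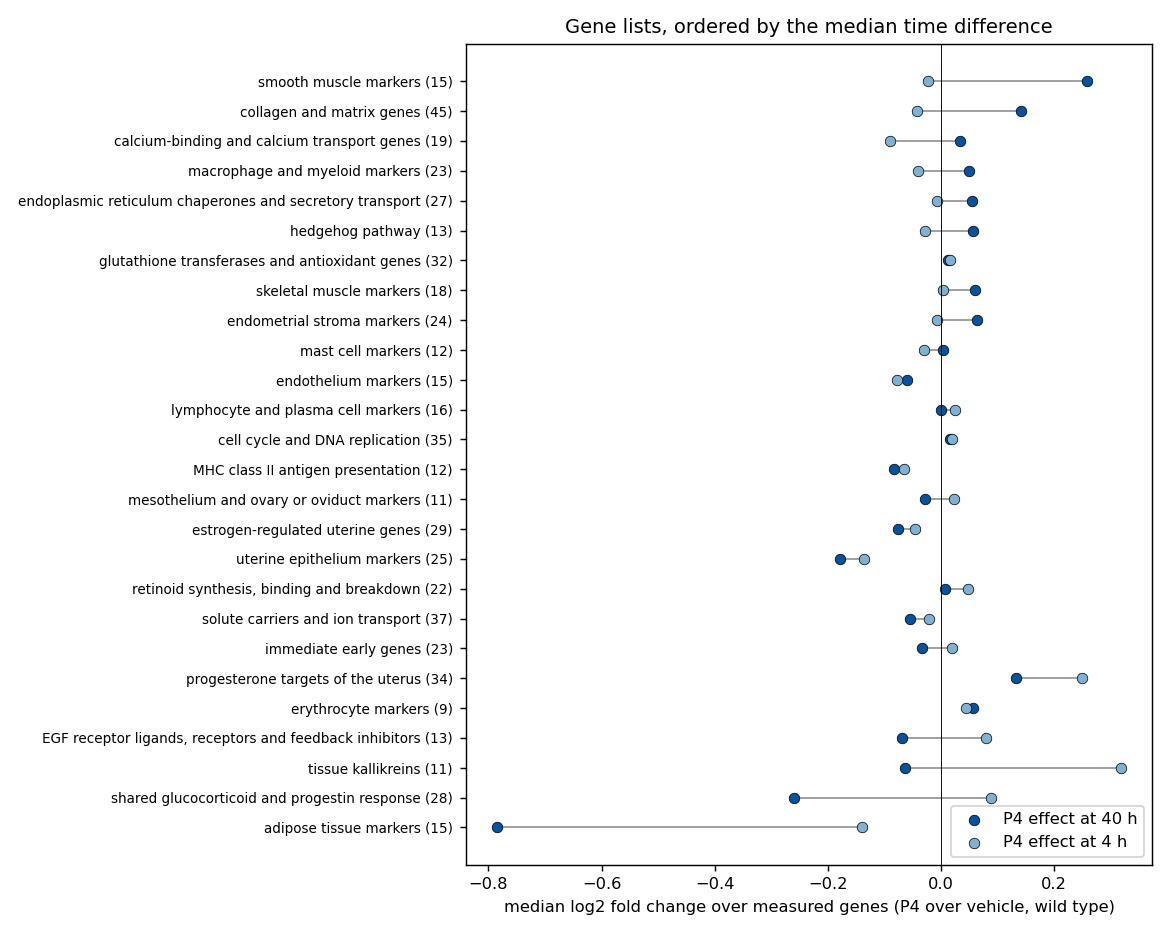
Median wild-type P4 effect (log2 fold change, P4 over vehicle) over the measured genes of each list, at 40 h (dark points) and 4 h (light points), with the number of measured genes in brackets and lists ordered by their median time difference. Adipose markers lie farthest to the left, at −0.79 and −0.14, and smooth muscle markers lie at 0.26 and −0.02.

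The count of 59 depended on single arrays. It was 32 without replicate 2 of the 40 h P4 group, 36 and 38 without replicates 1 and 2 of the 40 h vehicle group, and 91 without replicate 3 of the 4 h P4 group. All 59 kept their direction in each of these, which share most arrays with the full set from which the 59 were picked. With the spread estimated from the 12 wild-type arrays alone it was 26, of which 23 were among the 59. Both probe sets of S100g, Cyp26a1, Cited2, Spink1, Aldh1a1, Adamdec1, Ggct and Pip5k1b passed whichever single wild-type array was left out and under each of the other alternatives in which they were tested.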

How the data were processed

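Uterine RNA was hybridized to Affymetrix mouse U74Av2 arrays, 1 colour and 1 sample per array. The deposited intensity values are the authors' MAS5 signals per probe set, per the submitters' processing notes, with software version and settings not given in the sources used here. All 24 value columns matched a sample by its label, and 0 columns were left unmapped. Each array was scaled to a trimmed mean of 500 (2% trimmed at each end, scale factors 0.954 to 1.03), and log2 of the scaled value plus 32 was used. The 66 control probe sets were left out after scaling, leaving 12422. Of these, 10833 name a single gene through the platform annotation, 396 several and 1193 none, and 10817 were updated by gene identifier. Array medians as deposited were between 323.2 and 342.6, and the precision is limited by 3 arrays per group.

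A model of 8 group means over all 24 arrays was fitted with limma 3.58.1 in R 4.3.3 (eBayes with an intensity trend), with Benjamini-Hochberg adjustment over all tested probe sets and a threshold of 0.05. The code was tested on simulated data. Replicate numbers were shared between groups, but the labels tie them to no common animal or batch, so the number was not a block in this model and the blocked model is an alternative. Members, lists and tests were chosen with earlier results of these data known. Genes with full values are the 8 highest and 8 lowest passing time differences with P4 and vehicle arrays apart at 1 or both times, up to 4 per class and direction, list members passing the time difference, and Pgr. Others are named only to complete a class or list. Each gene of a list was read by its brightest probe set. Promoter windows came from RefSeq (GRCm38.p6). Alternatives covered scaling, offset, dim-signal filter, samples in the model, prior variance, array weights, the replicate block, RNA quality, adipose score, threshold, class rule and single arrays.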

Additional observations from a re-analysis of the deposited data

Results flagged for a closer look

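The P4 effect differed between 40 h and 4 h, by a limma test of the difference itself, for 59 probe sets. The 27 of them chosen by the naming rule above are given here. Values are the effect at 40 h minus that at 4 h on the log2 scale. A higher effect at 40 h was found for S100g (2.60 and 2.40), Calb1 (2.11), Spink1 (1.94), Acod1 (1.36), Ptgr1 (1.09), D430019H16Rik (1.06), Col3a1 (1.05), Pla2g4a (1.04), Col1a2 (1.04), H2az1 (0.74), S100a10 (0.70), Sem1 (0.67) and Col5a2 (0.65). A lower effect at 40 h was found for Cyp26a1 (−3.31), Adamdec1 (−1.84), Inmt (−1.71), Aldh1a1 (−1.44), Cited2 (−1.41), Sgk1 (−1.40), Scd1 (−1.38), Pigr (−1.20), Spsb1 (−1.19), Pip5k1b (−1.03), Ggct (−0.90), Bhlhe40 (−0.89) and Kcnq1 (−0.70).

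The time difference itself differed between wild-type and PRKO uteri for 4 probe sets. Wild type minus PRKO it was 2.54 and 2.34 for S100g, 2.03 for Spink1 and −3.30 for Cyp26a1.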

How the results depend on the processing

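The 59 probe sets kept their direction under every alternative in which they were tested. The 27 named time differences did so too, 16 of them passing whichever wild-type array was left out. These refits use the arrays from which the 59 were picked, so kept direction is no separate support. With the wild-type arrays alone, other prior variance settings, array weights, the replicate block or a PRKO array left out, the estimates themselves were unchanged. Leaving out each wild-type array in turn gave 32 to 91 time differences (15 to 27 higher, 17 to 64 lower), 7 to 33 transient, 12 to 24 late, 12 to 39 reversed and 8 to 20 sustained responses, 41 to 138 effects at 4 h, 90 to 247 at 40 h, 0 to 0 PRKO time differences and 3 to 29 differences between genotypes. Without further scaling 17 were higher. A mean signal of at least 200 left 2 genotype differences. The wild-type arrays alone gave 26 time differences (8 higher, 18 lower), 7 transient, 8 late, 11 reversed, 5 sustained, 32 at 4 h and 101 at 40 h. Array weights gave 17 higher, 8 transient, 13 reversed, 9 sustained, 36 at 4 h and 322 at 40 h. With replicate number as a block there were 129 time differences (58 higher, 71 lower), 22 transient, 56 late, 49 reversed, 376 at 40 h and 7 genotype differences, and 56 of the 59 were among the 129. Same-numbered P4 and vehicle arrays correlated in their deviations with r of 0.114, 0.516 and 0.350 at 4 h and 0.116, 0.142 and 0.0686 at 40 h in wild type, and each of the 6 wild-type P4 arrays correlated best with the vehicle array of its own number, a hint from the data and not from the design. Without both 4 h arrays of high Gapdh ratio there were 38 (17 lower), 5 transient, 12 reversed, 6 sustained and 29 at 4 h. With the Gapdh ratio as a covariate there were 20 transient, 37 late and 369 at 40 h. The adipose score gave 14 (5 higher, 9 lower), 4 transient, 1 late, 6 reversed, 0 sustained and 1 at 40 h. A threshold of 0.01 gave 28 (12 higher, 16 lower), 6 transient, 11 late, 11 reversed, 6 sustained, 45 at 4 h and 78 at 40 h. Called from both times alone, without the test of the difference, there were 70 transient and 173 late responses. With both effects required to pass, an alternative chosen after seeing the data, 4 were reversed. Offsets of 1, 16 and 100 gave 59, 59 and 63. Causes of these shifts were not tested. Dim probe sets near background and 3 arrays per group limit what could be resolved.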

Other observations

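Some of the larger unresolved responses belong to genes not described above. Clca1, a secreted regulator of chloride transport and mucus, had an effect of −3.05 at 40 h and −0.68 at 4 h, and its difference of −2.37 (95% confidence interval −3.74 to −1.01) did not pass (limma adjusted p = 0.14). Tgfbi, an adhesion protein gene induced by TGF-beta, had −1.73 and −0.68. The adipokine gene Adipoq had −1.41 and −0.14. In the other direction over time, Il13ra2, a decoy receptor for an interleukin, had 0.48 at 40 h and 1.12 at 4 h, and Pdk3, a kinase that restrains pyruvate use, had 0.23 and 1.05. The sulfotransferase Sult1d1 had −0.18 at 40 h and −0.98 at 4 h.

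Estrogen-regulated uterine genes had 5 of 29 members falling at 40 h and 2 at 4 h, and 1, Adamdec1, passed the time difference, lower at 40 h. Cell cycle and DNA replication genes had 0 of 35 passing at either time or in the difference by limma, with an unadjusted p under 0.05 in 2 at 40 h, 2 at 4 h and 0 in the difference.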
